A study of Mus musculus with 20 samples.

Results

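Interferon-stimulated genes are the genes that cells switch on when an interferon binds its receptor. A list of 43 of them was followed here through every library of a study of mouse intraepithelial lymphocytes (IELs). IELs are the T cells that sit among the epithelial cells lining the gut. The list was chosen by gene symbol, with earlier results of these data known. The 4 expression tables held 39, 40, 41 and 43 of the 43 symbols, and 38 members stood in all of them, out of 25933 symbols found in any table. The cells were CD8αα+ αβ IELs, a subset that carries the CD8α homodimer and an αβ T cell receptor, sorted from the small intestine of mice at steady state, with no infection or interferon treatment named in the labels. In all, 20 bulk RNA-seq libraries were available.

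Reporter mice of the genotype Bcl6-RFP/RFP, in which red fluorescent protein reports the transcription factor Bcl6, gave 3 libraries of RFP+CD160+ cells and 3 libraries of RFP-CD160- cells. Total CD8αα+ αβ IELs came from Bcl6fl/fl Cd8cre mice and their Bcl6fl/fl littermates, from Prdm1fl/fl Cd8cre mice and their Prdm1fl/fl littermates, and from Tcf7fl/fl Cd8cre mice and their Tcf7fl/fl littermates, with 2 libraries in each of these 6 groups. Cd8cre, a Cre recombinase driven by Cd8 regulatory sequence, is in the genotype of every knockout group and of no littermate group, so an effect of Cd8cre itself cannot be told apart from that of the deletion. A further 2 libraries of the reporter mice are titled LI while their tissue label reads small intestine, and no gate is given for them. They were put in no group and their values are set beside the others without a test. The labels give no age for these mice and do not say which libraries came from separate animals, so p-values measure only the spread between these samples, which may be technical.

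Type I interferons signal through the receptor chains Ifnar1 and Ifnar2, and interferon gamma through Ifngr1 and Ifngr2. Both routes use Janus kinases that phosphorylate STAT proteins. The complex that holds Stat2 and Irf9 binds the interferon-stimulated response element (ISRE), and the interferon gamma route acts through the gamma-activated sequence (GAS). The products then sense viral nucleic acid, block viral replication or budding, attack the membranes around intracellular pathogens, or shut the signal down again. IELs stand at a surface in constant contact with microbes and viruses.

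Depth was recovered from the deposited values, in megareads (M reads). It was 14.5 to 16.9 M reads for the RFP+CD160+ libraries, 16.5 to 17.4 M reads for the RFP-CD160- libraries, 30.0 and 22.5 M reads for the LI libraries, and 22.1 to 48.2 M reads in the 3 knockout experiments. The sorting markers followed the labels: Bcl6 averaged 15.3 ± 2.33 FPKM in RFP+CD160+ cells and 3.45 ± 0.144 FPKM in RFP-CD160- cells, and Cd160 averaged 238 ± 5.70 and 66.0 ± 3.94 FPKM in the same order (SD, n = 3 each). FPKM is a fragment count scaled to transcript length and library depth. Cd3e stood at 157 to 246 FPKM and Cd8a at 542 to 946 FPKM in the 6 sorted reporter libraries, while Cd4 and the macrophage gene Csf1r stayed under 0.1 FPKM in each of them. Among the targeted genes, Prdm1 was at 640 and 362 scaled reads in Prdm1 knockout libraries, against 6092 and 5117 in littermates, and Tcf7 was at 7757 and 7993 scaled reads in Tcf7 knockout libraries, against 15430.3 and 15606 in littermates. Bcl6 was at 0.550 and 0.638 FPKM in Bcl6 knockout libraries, against 0.772 and 0.735 FPKM in littermates. That is a small difference at a low level, and a value over the whole gene does not show the loss of floxed exons.

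Sorted RFP+CD160+ and RFP-CD160- cells differed in part of the interferon-stimulated list. Of the 35 members that passed the filter on low values, 11 rose and 1 fell in RFP+CD160+ cells, by limma at an adjusted p under 0.05. The risers were the transcription factors Irf1 and Irf9, the sensor Zbp1, the ubiquitin ligase Trim25, the oligoadenylate synthetases Oas3 and Oasl1, the RNA binder Ifit3, the ISG15 protease Usp18, the antiviral proteins Rsad2 and Bst2, and Rtp4. The faller was the ADP-ribosyltransferase Parp14. Oas3 and Usp18 met the filter only through the RFP+CD160+ libraries, the group where they were high. In this comparison 38.0% of all 9717 tested genes passed the same threshold, 16.4% higher and 21.6% lower, so that 12 of 35 members is close to the share of genes at large, with 11 of the 12 on the higher side. The median difference over the 35 members was 0.09, against -0.03 over all tested genes, both on the log2(FPKM + 1) scale. That scale understates the change of genes at a low level. All 3 RFP+CD160+ libraries lay above all 3 RFP-CD160- libraries for 14 of the 35 members, against 23.4% of all tested genes, and below them for 4, against 28.5% of all tested genes. When the deposited values were rescaled to equal library totals, the median difference of all genes shifted by 0.15, 20 members passed as higher and 0 as lower, and the calls over all genes were 74.0% on the higher side, against 43.1% as deposited. Centring on well expressed genes gave 53.1% on the higher side, with 11 members higher and 0 lower.

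**Figure D1:**
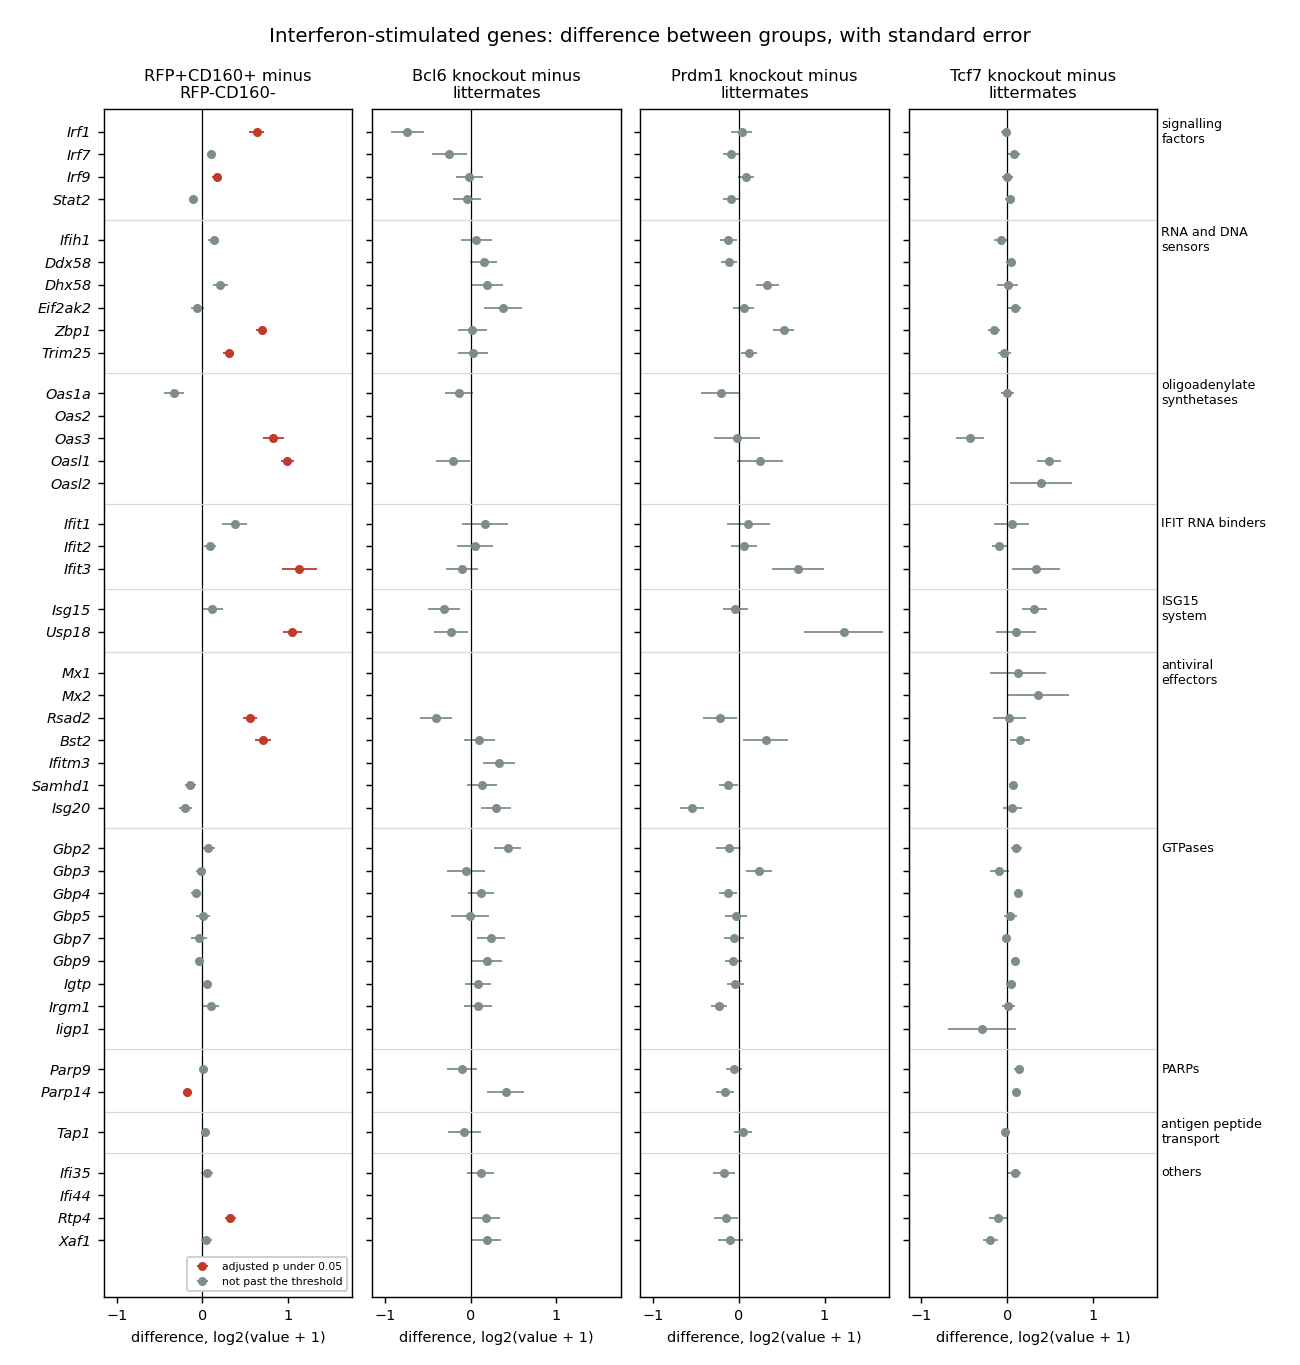
Difference between groups for each tested member in the 4 comparisons, with its standard error, on the log2(value + 1) scale. Rows are the 43 members by role, red points passed an adjusted p of 0.05, and a row with no point in a panel was absent from that table or under the filter. The 12 red points all stand in the left panel, 11 to the right of 0, and none stands among the GTPases.

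Marker genes of T cells and of other cells differed between these sorted groups too. Of 7 tested genes of the αβ T cell and IEL list, 4 were lower in RFP+CD160+ cells, Cd3e, Cd3g, Cd8a and Itgae, and 1 was higher, Cd2. The list summed to 1530 to 1647 FPKM in RFP+CD160+ libraries and 2251 to 2325 FPKM in RFP-CD160- libraries. Of 10 tested epithelial markers, Epcam and Krt18 were called lower and Cdh1 higher. That list summed to 111 to 129 FPKM and 105 to 200 FPKM in the same order. Krt18 met the filter only through its RFP-CD160- libraries. From the B cell, plasmacytoid dendritic, innate lymphoid and stromal lists, Cd79b, Runx2, Gata3 and Pecam1 were called lower, and Pacsin1 and Klrb1c higher. Paneth cell markers, with 0 of 5 tested genes called by limma and 1 at an unadjusted p under 0.05, summed to 18.1 to 68.8 FPKM and 39.0 to 279 FPKM in the same order, the highest in RFP-CD160- replicate 2. Of a list of 13 myeloid marker genes, 8 were in the table and 4 were tested, and all 4 were lower in RFP+CD160+ cells. The summed level of the list was 22.2 to 28.6 FPKM in RFP+CD160+ libraries, 87.4 to 96.9 FPKM in RFP-CD160- libraries and 13.8 to 16.1 FPKM in LI libraries. Those 4 genes were Cd68, Itgam, Fcgr3 and Itgax, which T cells and natural killer cells can also express. Itgam met the filter only through its RFP-CD160- libraries. Lyz2, Csf1r and C1qa, which mark macrophages more tightly, stayed under 1 FPKM in every one of these libraries. The last of the 8, Xcr1, was under the filter too but lower in each RFP+CD160+ library. It had 0.270, 0.0618 and 0.146 FPKM there, against 0.585, 0.499 and 0.556 FPKM in RFP-CD160- libraries. A list of 4 immediate-early and heat-shock genes, Fos, Jun, Egr1 and Hspa1a, which rise with cell activation and with handling, had 3 of 4 higher in RFP+CD160+ cells and summed to 1010 to 1737 FPKM in RFP+CD160+ libraries, 318 to 631 FPKM in RFP-CD160- libraries and 1770 to 2142 FPKM in LI libraries. The part of these lists in the results on the interferon-stimulated genes was not tested. In bulk RNA, fewer cells of a type and less RNA per cell cannot be told apart.

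Among the transcription factors, Irf1 is induced by interferon gamma and itself switches on many other members. Irf1 had 91.8, 82.1 and 92.3 FPKM in the RFP+CD160+ libraries, against 50.3, 61.4 and 59.4 FPKM in the RFP-CD160- libraries. Each RFP+CD160+ library was above each RFP-CD160- library, and the LI libraries were higher than either, at 155 and 169 FPKM. The difference was 0.63 ± 0.08 (log2 scale, SE, adjusted p = 0.00072 by limma), and Irf1 also had the highest mean level of all members in this table. Irf9, the DNA-binding partner of Stat2, had 14.6, 15.3 and 14.9 FPKM in RFP+CD160+ libraries, against 13.3, 13.4 and 13.0 FPKM in RFP-CD160- libraries. The groups did not overlap, but the difference was small, 0.16 ± 0.05 (adjusted p = 0.031), and leaving out any of the 6 libraries raised the adjusted p to between 0.054 and 0.092. Irf7, which amplifies type I interferon production, and Stat2 did not pass the test. Irf7 averaged 21.1 ± 0.627 FPKM in RFP+CD160+ cells and 19.6 ± 0.733 FPKM in RFP-CD160- cells, and Stat2 averaged 19.6 ± 0.703 and 21.3 ± 0.114 FPKM (SD, n = 3 each).

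Of the nucleic acid sensors and their partners, 2 of 5 tested members rose, where 16.4% of all tested genes did. Zbp1, which binds left-handed double helices and can start cell death, had 34.4, 32.8 and 34.2 FPKM in RFP+CD160+ libraries, against 21.8, 21.2 and 18.9 FPKM in RFP-CD160- libraries. The gap between the groups was wider than the spread within either, 0.69 ± 0.06 (adjusted p = 9.9e-05), and both LI libraries, at 20.4 and 20.9 FPKM, were at the RFP-CD160- level. Trim25, a ubiquitin ligase that works with the sensor Ddx58 (RIG-I), had 14.3, 15.1 and 15.8 FPKM in RFP+CD160+ libraries, against 13.0, 11.5 and 11.6 FPKM in RFP-CD160- libraries. Here the groups were separate by a smaller step, 0.30 ± 0.07 (adjusted p = 0.0082), and the LI libraries, at 14.8 and 16.0 FPKM, were at the RFP+CD160+ level. Ifih1 (MDA5), Dhx58 (LGP2) and the kinase Eif2ak2 (PKR) did not pass, with differences of 0.13, 0.21 and -0.06. Ddx58 was not analysed in this comparison.

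The oligoadenylate synthetase family makes short signal molecules in response to double-stranded RNA. Oas3 had 1.91, 1.36 and 1.52 FPKM in RFP+CD160+ libraries, against 0.565, 0.509 and 0.318 FPKM in RFP-CD160- libraries. The level was low throughout, yet every RFP+CD160+ library was above every RFP-CD160- library, and the difference was 0.83 ± 0.12 (adjusted p = 0.0012). Among the sorted libraries only those of RFP+CD160+ cells reached 1 FPKM, so Oas3 was tested through the group where it was high. With no filter on low values it also passed. Oasl1, an inactive relative that in mice holds back the translation of Irf7, had 6.78, 6.22 and 6.92 FPKM in RFP+CD160+ libraries, against 3.20, 2.62 and 2.72 FPKM in RFP-CD160- libraries. Its difference was 0.99 ± 0.08 (adjusted p = 5.5e-05), and the LI libraries lay between the groups at 4.41 and 4.68 FPKM. Oas1a went the other way without passing: it averaged 13.5 ± 0.555 FPKM in RFP+CD160+ cells and 17.4 ± 3.37 FPKM in RFP-CD160- cells (difference -0.33 ± 0.12, adjusted p = 0.059). Leaving out RFP-CD160- replicate 2 gave it an adjusted p of 0.010. Mice carry several near-identical Oas1 genes, so the split of reads among them is uncertain.

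The Ifit genes, whose products hold on to foreign RNA ends, lie side by side on chromosome 19. All 3 had differences above 0 and only Ifit3 passed, but the genes were not tested against each other. Ifit3 had 6.05, 3.59 and 2.68 FPKM in RFP+CD160+ libraries, against 1.18, 1.31 and 1.25 FPKM in RFP-CD160- libraries. The RFP+CD160+ libraries were all higher and more scattered, and of the 35 tested members Ifit3 had the widest relative spread within the RFP+CD160+ group. Its difference was 1.13 ± 0.21 (adjusted p = 0.0038). Ifit1 and Ifit2 differed by 0.38 ± 0.15 and 0.09 ± 0.07 with overlapping groups (adjusted p = 0.076 and 0.36). Leaving out RFP-CD160- replicate 1 brought the adjusted p of Ifit1 to 0.038, and rescaling to equal totals brought it to 0.024. Ifit1 also passed with the replicate block. A near copy of Ifit3, Ifit3b, makes the assignment of reads to Ifit3 uncertain.

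Of the ISG15 system, Usp18 passed the test and Isg15 did not, and the 2 genes were not tested against each other. Isg15, a ubiquitin-like protein that is attached to other proteins after interferon, had 24.9, 25.5 and 26.8 FPKM in RFP+CD160+ libraries, against 29.6, 20.9 and 21.3 FPKM in RFP-CD160- libraries. Of the 6 libraries, the highest was RFP-CD160- replicate 1, so the groups overlapped and the difference was 0.12 ± 0.12 (adjusted p = 0.48). Without that library it was 0.27, with an adjusted p of 0.0077. Usp18, which strips Isg15 from proteins and blocks the type I receptor, had 2.27, 2.22 and 1.74 FPKM in RFP+CD160+ libraries, against 0.412, 0.452 and 0.598 FPKM in RFP-CD160- libraries. These groups stood well apart at a low level, by 1.05 ± 0.11 (adjusted p = 0.00021). Usp18, like Oas3, met the filter only through its RFP+CD160+ libraries, and it also passed with no filter.

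Among the direct antiviral effectors, 2 of 4 tested members rose, where 16.4% of all tested genes did. Bst2 (tetherin), which holds budding virus at the cell surface, had 33.3, 34.0 and 28.2 FPKM in RFP+CD160+ libraries, against 20.7, 19.9 and 16.7 FPKM in RFP-CD160- libraries, a difference of 0.71 ± 0.10 (adjusted p = 0.00082). Rsad2 (viperin), which makes a chain-terminating nucleotide, had 3.28, 2.95 and 3.51 FPKM in RFP+CD160+ libraries, against 1.87, 2.02 and 1.79 FPKM in RFP-CD160- libraries, a difference of 0.55 ± 0.08 (adjusted p = 0.0014). For both genes every RFP+CD160+ library was above every RFP-CD160- library, and the LI libraries were near the RFP-CD160- level, at 20.8 and 22.3 FPKM for Bst2 and 1.85 and 2.21 FPKM for Rsad2. Samhd1, which depletes nucleotides, and the exonuclease Isg20 did not pass, with differences of -0.14 and -0.20. Mx1, Mx2 and Ifitm3 were not analysed in this comparison.

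Rtp4 and Parp14 were the remaining members that passed. Rtp4, induced by interferon and known as a chaperone of membrane receptors, had 12.2, 11.0 and 11.7 FPKM in RFP+CD160+ libraries, against 9.58, 9.12 and 8.59 FPKM in RFP-CD160- libraries (difference 0.32 ± 0.06, adjusted p = 0.0055). Parp14 had 24.7, 22.97 and 22.6 FPKM in RFP+CD160+ libraries, against 27.1, 26.4 and 26.3 FPKM in RFP-CD160- libraries (difference -0.18 ± 0.05, adjusted p = 0.028). Rtp4 was higher and Parp14 lower in every RFP+CD160+ library, but the call on Parp14 was lost after rescaling to equal totals, where the difference was -0.02 with an adjusted p of 0.73, and on leaving out any library but RFP+CD160+ replicate 1. The partner of Parp14, Parp9, differed by 0.01. In the annotation Irf9 overlaps Rnf31, Rtp4 overlaps Masp1, and Irf1, Oasl1 and Usp18 overlap predicted antisense genes, and no source used here says that reads were counted by strand, so their values may include reads of these neighbours.

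**Figure D2:**
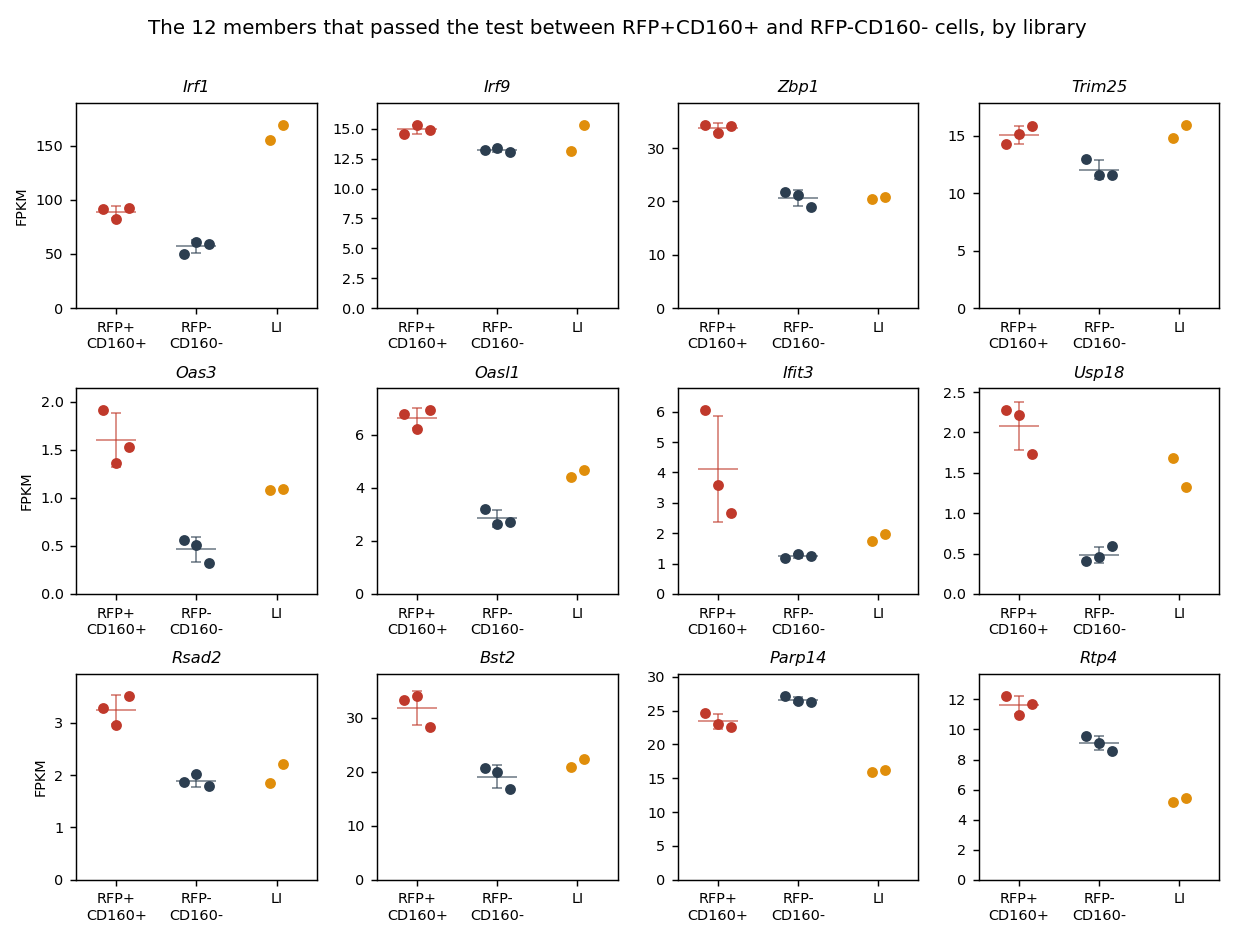
FPKM in each library for the 12 members that passed the test, with RFP+CD160+ cells at the left (3 libraries), RFP-CD160- cells in the middle (3 libraries) and the LI libraries at the right (2 libraries). Each axis starts at 0, and horizontal marks and bars are the mean and SD of the sorted groups. Irf1 is highest in LI, at 155 and 169 FPKM, while Zbp1, Bst2 and Rsad2 in LI are near RFP-CD160- cells.

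The interferon-inducible GTPases, which assemble on the vacuoles of intracellular pathogens, showed no member past the threshold. Of 9 members 8 were tested by limma, 0 passed and 0 had an unadjusted p under 0.05, where 38.0% of all tested genes passed. The differences ran from -0.08 to 0.10. After rescaling to equal totals, however, Gbp2 and Igtp passed as higher, at 0.22 and 0.21 against a median of 0.12 over all genes. The GTPases include some of the most abundant members. Gbp9 had 60.2, 55.8 and 58.5 FPKM in RFP+CD160+ libraries, against 60.4, 61.5 and 57.5 FPKM in RFP-CD160- libraries. Igtp had 51.8 FPKM in each of the 3 RFP+CD160+ libraries, against 52.9, 46.0 and 50.9 FPKM in RFP-CD160- libraries. The groups overlapped for both, and for each of the other 6 tested GTPases. The LI libraries were lower than all 6 sorted libraries for both, at 40.8 and 40.2 FPKM for Gbp9 and 36.1 and 37.2 FPKM for Igtp. Gbp4 and Gbp9 overlap on the minus strand of chromosome 5, and Igtp overlaps Irgm2 in the annotation, so reads may be shared between them. The ninth, Iigp1, was under the filter: its values correspond to about 34, 26 and 37 reads in RFP+CD160+ libraries, against 3, 6 and 5 reads in RFP-CD160- libraries. With no filter on low values Iigp1 passed as higher.

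**Figure D3:**
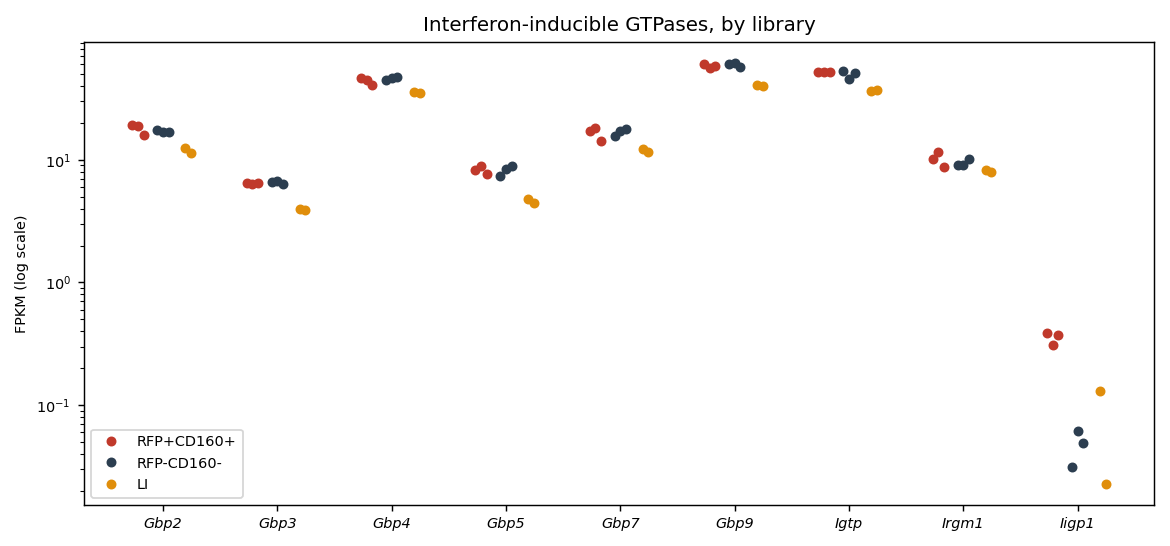
FPKM on a log axis for the 9 GTPase members in each library, with RFP+CD160+ cells in red, RFP-CD160- cells in dark blue and LI libraries in orange. For the 8 tested genes the red and blue points overlap and the orange points are lower, and Iigp1 stands apart at under 1 FPKM.

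The other 3 members under the filter were also higher in every RFP+CD160+ library, as were 23.4% of the genes that passed the filter. The share among genes under the filter is not given here. The values of Oasl2 correspond to about 56.1, 26 and 30 reads in RFP+CD160+ libraries, against 16, 15 and 10 reads in RFP-CD160- libraries. Oas2 had about 13, 5 and 6 reads, against 2, 1 and 4 reads, and Ifi44 had about 9, 5 and 5 reads, against 4, 1 and 0 reads. At this depth the counts are too few for a firm comparison. The members not yet named, Tap1, which carries peptides to class I molecules, Ifi35 and Xaf1, differed by 0.03 to 0.05 and did not pass.

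The LI libraries were low for most of the list. Both LI libraries were below the range of the 6 sorted reporter libraries for 23 of the 35 tested members, against 21.2% of all tested genes, and above it for 2, Irf1 and Samhd1, against 20.9% of all tested genes. Cd8a was at 297 and 281 FPKM in the LI libraries too, under the range of the sorted ones. The 23 include 8 of 8 tested GTPases and Isg15, at 11.5 FPKM in both LI libraries, against 20.9 to 29.6 FPKM in the sorted ones.

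Many, but not all, of the members' promoters hold the core letters of the motifs through which interferon acts, and some are shown here because members that share a motif differed in whether they passed the test. RefSeq promoter windows of 300 bases, from 250 before to 50 after the start of a gene on GRCm38.p6, were found for 31 of the 43 members. None was matched for Dhx58, Zbp1, Oas2, Usp18, Mx1, Mx2, Gbp4, Gbp9, Iigp1, Parp9, Parp14 and Rtp4. The ISRE core was searched as GAAANNGAAA and its reverse complement TTTCNNTTTC, and the GAS core as TTCNNNGAA, which is its own reverse complement. Overlapping matches of either motif were each counted. The first 4 windows below belong to members that rose in RFP+CD160+ cells and hold the ISRE core in capitals.

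Ifit3, chr19:34583279-34583578, plus strand: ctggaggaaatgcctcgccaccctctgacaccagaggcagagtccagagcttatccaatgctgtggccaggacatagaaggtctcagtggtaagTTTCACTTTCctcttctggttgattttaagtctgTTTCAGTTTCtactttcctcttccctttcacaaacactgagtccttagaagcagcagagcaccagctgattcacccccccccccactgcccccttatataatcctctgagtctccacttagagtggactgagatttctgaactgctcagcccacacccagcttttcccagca
Rsad2, chr12:26456403-26456702, minus strand: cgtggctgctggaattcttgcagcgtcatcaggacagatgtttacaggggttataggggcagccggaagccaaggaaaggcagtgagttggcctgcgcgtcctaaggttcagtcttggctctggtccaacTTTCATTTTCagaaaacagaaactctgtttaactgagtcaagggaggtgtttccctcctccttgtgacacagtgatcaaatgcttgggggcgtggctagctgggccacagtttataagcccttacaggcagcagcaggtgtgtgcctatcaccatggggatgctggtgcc
Oas3, chr5:120777610-120777909, minus strand: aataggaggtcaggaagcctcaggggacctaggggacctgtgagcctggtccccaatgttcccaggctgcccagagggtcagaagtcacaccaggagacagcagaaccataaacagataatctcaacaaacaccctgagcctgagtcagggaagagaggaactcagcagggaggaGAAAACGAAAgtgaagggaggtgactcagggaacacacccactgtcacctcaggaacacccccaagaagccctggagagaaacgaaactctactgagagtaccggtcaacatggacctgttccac
Bst2, chr8:71537423-71537722, minus strand: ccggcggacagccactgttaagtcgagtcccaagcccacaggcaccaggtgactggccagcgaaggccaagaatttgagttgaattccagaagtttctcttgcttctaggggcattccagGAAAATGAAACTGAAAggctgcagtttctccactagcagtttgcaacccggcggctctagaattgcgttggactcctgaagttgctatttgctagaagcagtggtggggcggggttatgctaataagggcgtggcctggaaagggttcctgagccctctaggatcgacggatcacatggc

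Irf1 rose as well, and its window holds no ISRE core but 1 GAS core, in capitals.

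Irf1, chr11:53769764-53770063, plus strand: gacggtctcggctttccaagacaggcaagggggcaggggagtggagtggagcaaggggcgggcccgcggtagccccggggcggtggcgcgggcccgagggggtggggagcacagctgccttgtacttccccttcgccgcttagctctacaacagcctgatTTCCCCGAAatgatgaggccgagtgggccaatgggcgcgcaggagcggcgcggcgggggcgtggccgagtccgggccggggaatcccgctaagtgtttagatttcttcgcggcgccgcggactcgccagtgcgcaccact

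Isg15 and Gbp7 did not pass the test, and their windows hold 3 overlapping ISRE cores and 1 ISRE core, in capitals.

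Isg15, chr4:156200769-156201068, minus strand: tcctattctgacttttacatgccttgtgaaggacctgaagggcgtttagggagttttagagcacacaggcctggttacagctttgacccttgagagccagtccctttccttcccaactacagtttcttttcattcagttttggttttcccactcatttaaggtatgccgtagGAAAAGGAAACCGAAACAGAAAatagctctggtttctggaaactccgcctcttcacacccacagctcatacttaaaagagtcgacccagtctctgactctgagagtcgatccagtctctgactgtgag
Gbp7, chr3:142530086-142530385, plus strand: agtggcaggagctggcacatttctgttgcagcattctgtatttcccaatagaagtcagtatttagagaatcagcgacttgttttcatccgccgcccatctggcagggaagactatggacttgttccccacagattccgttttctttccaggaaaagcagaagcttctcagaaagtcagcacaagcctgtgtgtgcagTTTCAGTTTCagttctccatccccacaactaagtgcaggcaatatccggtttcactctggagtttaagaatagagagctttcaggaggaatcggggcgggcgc

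In all, 18 of the 31 members with a window held an ISRE core, 58.1%, against 3.99% of 27025 genes with a window, and 12 held a GAS core, 38.7%, against 9.55%. Neither core was in the windows of Oasl1, Trim25 and Irf9, which rose, nor in those of Irf7, Tap1, Xaf1, Oasl2 and Ifi44. The ISRE core was present in 4 of the 8 members that rose and had a window, in 12 of the 19 that were tested and did not pass, and in 6 of 6 GTPases with a window. In Ifit3 the 2 cores start 156 and 122 bases before the start site, in Oas3 the core starts 75 bases before it, and in Gbp7 53 bases before it. A match is a run of letters and not a measured binding site.

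Upstream of these genes, 3 of 5 tested receptor genes rose in RFP+CD160+ cells, where 16.4% of all tested genes rose and 21.6% fell. Ifngr2, the signalling chain of the interferon gamma receptor, had 2.69, 2.10 and 2.75 FPKM in RFP+CD160+ libraries, against 0.0643, 0.462 and 0.168 FPKM in RFP-CD160- libraries (difference 1.52 ± 0.14, adjusted p = 0.00012). It was near 0 in RFP-CD160- cells and higher still in LI, at 7.96 and 8.97 FPKM. Ifngr2 thus met the filter only through its RFP+CD160+ libraries, and it kept its call with no filter. Ifnar2, a chain of the type I receptor, averaged 12.6 ± 0.530 FPKM in RFP+CD160+ cells and 7.76 ± 0.585 FPKM in RFP-CD160- cells, and Ifngr1 averaged 370.4 ± 34.8 and 272 ± 36.1 FPKM (SD, n = 3 each, adjusted p = 0.00023 and 0.011). Of 21 interferon ligand genes only Ifng and Ifnk were in the table and only Ifng was tested. Ifng had 2.63, 3.13 and 2.47 FPKM in RFP+CD160+ libraries, against 3.04, 7.78 and 8.76 FPKM in RFP-CD160- libraries. Its groups overlapped, its adjusted p was 0.041, and 8 of 11 alternative settings lost that call, among them leaving out any single library but RFP-CD160- replicate 1, with adjusted p up to 0.12.

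Of 12 signal transducers, 2 rose and 3 fell, 41.7% in all, close to the 38.0% of all tested genes that passed. Irf5 averaged 4.88 ± 0.617 FPKM in RFP+CD160+ cells and 3.22 ± 0.195 FPKM in RFP-CD160- cells (adjusted p = 0.0049). Irf8, a factor of interferon gamma responses, averaged 14.7 ± 1.30 FPKM in RFP+CD160+ cells and 26.4 ± 0.565 FPKM in RFP-CD160- cells (adjusted p = 6.7e-05). The fall of Stat4, from the same list, was 0.19 on the log2 scale and lost its call under 7 of 11 settings, 4 of which left out RFP+CD160+ replicate 1 or 3 or RFP-CD160- replicate 2 or 3. The list of brakes on signalling moved in both directions, with 4 of 16 tested genes higher and 4 lower, against 16.4% and 21.6% of all tested genes. Socs3, an inhibitor of JAK kinases, had 26.7, 24.3 and 52.7 FPKM in RFP+CD160+ libraries, against 8.15, 5.33 and 4.96 FPKM in RFP-CD160- libraries (difference 2.26 ± 0.28, adjusted p = 0.00052). Socs2, which acts mainly on growth hormone signalling, was near 0 in RFP+CD160+ cells, at 0.114 ± 0.024 FPKM, and stood at 2.46 ± 0.326 FPKM in RFP-CD160- cells (adjusted p = 1.7e-05). It met the filter only through its RFP-CD160- libraries. The phosphatase Ptpn11 averaged 36.3 ± 0.247 and 55.7 ± 0.703 FPKM in the same order (adjusted p = 2.7e-05). Ube2l6, which stands in this list but is the enzyme that passes Isg15 on to its targets, had 1.00, 1.34 and 0.860 FPKM in RFP+CD160+ libraries, against 8.83, 6.70 and 8.34 FPKM in RFP-CD160- libraries (difference -2.11 ± 0.12, adjusted p = 8.5e-06). Ube2l6 and Usp18, which act on Isg15 in opposite directions, thus had opposite signs.

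The wider lists moved both ways too. The share that passed was 35.7% for nucleic acid sensing, 48.3% for further interferon-stimulated genes and 41.7% for antigen presentation, against 38.0% of all tested genes, 16.4% higher and 21.6% lower. Of 14 tested genes of nucleic acid sensing, 3 rose and 2 fell: Ifi208 and the kinase Ikbke averaged 14.6 ± 1.33 and 13.5 ± 0.229 FPKM in RFP+CD160+ cells, against 7.64 ± 0.940 and 11.2 ± 0.342 FPKM in RFP-CD160- cells. The adaptor Ticam1 averaged 5.61 ± 0.151 FPKM in RFP+CD160+ cells and 7.89 ± 1.11 FPKM in RFP-CD160- cells (adjusted p = 0.0078). Of 60 further interferon-stimulated genes tested, 21 rose and 8 fell. Ifi213 averaged 17.5 ± 1.49 FPKM in RFP+CD160+ cells and 6.50 ± 0.705 FPKM in RFP-CD160- cells, Sp110 averaged 31.9 ± 0.948 and 17.0 ± 0.864 FPKM, Ly6e averaged 144 ± 2.85 and 91.6 ± 3.01 FPKM, and the purine-degrading enzyme Xdh averaged 10.3 ± 0.869 and 28.1 ± 1.96 FPKM (SD, n = 3 each, adjusted p from 6.6e-06 to 3.6e-05). Of 24 antigen presentation genes 6 rose and 4 fell, by small amounts. H2-Q6 averaged 771 ± 18.8 FPKM in RFP+CD160+ cells and 635 ± 14.4 FPKM in RFP-CD160- cells, Psme1 averaged 94.9 ± 4.87 and 75.1 ± 6.61 FPKM, Pdia3 averaged 113 ± 1.02 and 135 ± 4.31 FPKM, and H2-T23 averaged 126 ± 8.12 and 148 ± 1.497 FPKM (adjusted p from 0.0042 to 0.014). The calls on Pdia3 and H2-T23 were lost after rescaling to equal totals, with adjusted p of 0.10 and 0.33, and that on H2-T23 also without RFP+CD160+ replicate 1.

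Deleting Bcl6 left the list without a call. By limma, 0 of 36 tested members passed, 2 had an unadjusted p under 0.05, and 0.418% of all 9573 tested genes passed, 0.0313% higher and 0.387% lower. The median difference over the members was 0.08, against 0.03 over all tested genes. Irf1 came nearest. It had 93.1 and 67.4 FPKM in Bcl6 knockout libraries, against 134 and 132 FPKM in littermates, so both knockout libraries were lower and far apart from each other (difference -0.74 ± 0.19, adjusted p = 0.30). Leaving out knockout replicate 1 or replicate 2 gave Irf1 an adjusted p of 3.3e-09 and 0.023, the remaining library being taken to vary like the littermates. The 4 immediate-early and heat-shock genes summed to 612 to 756 FPKM in the same knockout libraries and to 1642 to 1799 FPKM in the littermates, and the Paneth cell markers, 4 of 5 lower, summed to 57.7 to 59.9 FPKM, against 244 to 253 FPKM in the littermates. The part of either list in the Irf1 values was not tested. The other member with an unadjusted p under 0.05 was Gbp2, at 45.8 and 49.9 FPKM in knockout libraries, against 35.0 and 35.4 FPKM in littermates (adjusted p = 0.72). All knockout libraries lay above the littermates for 11 of the 36 members, against 19.0% of all tested genes, and 5 of those 11 were GTPases. They lay below for 5, against 14.0% of all tested genes. Rsad2 was among these, at 2.05 and 2.07 FPKM in knockout libraries, against 3.25 and 2.86 FPKM in littermates (adjusted p = 0.88). Without knockout replicate 1, 3 members passed as higher, Gbp2, Ifit1 and Parp14, and 2 as lower, Irf1 and Irf7, while the number of genes called overall went to 1562, against 40 with all libraries. Knockout replicate 2, the library then left, stood apart in macrophage genes: C1qa, C1qb and Lyz2 were at 6.40, 12.0 and 22.7 FPKM there, against 1.32, 1.67 and 6.71 FPKM in knockout replicate 1. The myeloid list, with 0 of 7 tested genes called by limma and 2 at an unadjusted p under 0.05, summed to 157 to 193 FPKM in knockout libraries and to 111 to 120.3 FPKM in littermates. The part of these genes in the values of the members was not tested. None of 130 tested genes in the 7 pathway lists passed, and 10 had an unadjusted p under 0.05. Socs3 was at 9.73 and 5.96 FPKM in knockout libraries, against 18.5 and 23.5 FPKM in littermates (adjusted p = 0.062).

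Deleting Prdm1 left the list without a call by limma, while the count-based tests called Zbp1 higher. Values of this experiment are reads scaled by a size factor per library, with no gene length in them, so they are compared between libraries and not between genes. By limma 0 of 36 tested members passed, 5 had an unadjusted p under 0.05, and 6.84% of all 10969 tested genes passed, 4.29% higher and 2.54% lower. On the reads recovered from the scaled values, edgeR called 1 member and DESeq2 called 1, Zbp1 in both. Zbp1 had 2841 and 2922 scaled reads in Prdm1 knockout libraries, against 1816 and 2221 in littermates. The groups were separate, and the difference of 0.52 ± 0.12 had an adjusted p of 0.055 by limma, 0.046 by edgeR and 0.0052 by DESeq2. After centring on well expressed genes its adjusted p was 0.039, and without littermate replicate 2 it was 0.0057. Usp18 had 135 and 153 scaled reads in knockout libraries, against 37.2 and 99.2 in littermates (difference 1.22 ± 0.47, adjusted p = 0.20). Its littermate libraries were far apart, and without littermate replicate 2, the higher of them, the adjusted p was 0.0097.

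The other members of this experiment passed neither by limma nor by the count-based tests. Isg20 had 404 and 433 scaled reads in Prdm1 knockout libraries, against 601 and 621 in littermates, a difference of -0.55 ± 0.14 whose adjusted p was 0.070. Ifit3 had 121 and 179.8 scaled reads in knockout libraries, against 79.7 and 104 in littermates (difference 0.69 ± 0.31, adjusted p = 0.27). Groups were separate for both. Dhx58 and Irgm1 were the remaining members with an unadjusted p under 0.05, at 0.33 ± 0.14 and -0.23 ± 0.09 (adjusted p = 0.24 and 0.23). Irf1 overlapped between the groups, at 11335 and 9150 scaled reads in knockout libraries, against 10020 and 9919 in littermates. Over the 36 members the median difference was -0.05, against -0.04 over all tested genes. Knockout libraries were all higher for 7 members, against 21.8% of all tested genes, and all lower for 10, against 30.6% of all tested genes. Epithelial marker genes were higher in the knockout libraries, 13 of 18 by the same test, with a summed level of 21013 to 21825 scaled reads, against 15614 to 16760 in littermates, and the 4 immediate-early and heat-shock genes summed to 119796 to 146836 scaled reads, against 74014 to 85870 in littermates. Of 5 tested myeloid markers, 3 were called lower. Another 1 went the other way without a call, by 1.83, with both knockout libraries above both littermates. The myeloid list summed to 6901 to 7180 scaled reads in knockout libraries, against 12195 to 14447 in littermates. Paneth cell markers, 0 of 6 called by limma, had differences of 1.55 to 2.18. They summed to 2953 to 15745 scaled reads in knockout libraries, far apart from each other, against 1264 to 3165 in littermates. The part of these lists in the values of the members was not tested.

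In the pathway lists of the Prdm1 knockout, 7 of 137 tested genes rose and 4 fell, 8.03% in all, near the 6.84% of all tested genes that passed, so the genes below are given for their own values. Ifngr2 had 419.5 and 510.3 scaled reads in knockout libraries, against 116 and 141 in littermates (difference 1.85 ± 0.21, adjusted p = 0.0057). Irf5 had 548 and 596, against 280.3 and 283 (difference 1.02 ± 0.15, adjusted p = 0.013). Ube2l6 had 102 and 106 scaled reads in knockout libraries, against 373 and 363 in littermates (difference -1.82 ± 0.19, adjusted p = 0.0049). Socs2 had 83.7 and 119.5, against 282 and 376 (difference -1.69 ± 0.27, adjusted p = 0.016). These 4 genes, like Ifi213 and Xdh, passed in the same direction between RFP+CD160+ and RFP-CD160- cells. Shared signs were common at large: of 9582 genes tested in both comparisons, 2755 were above 0 in both and 4322 below 0 in both. Prdm1 itself was lower in RFP+CD160+ cells, at 1.04 ± 0.223 FPKM, against 26.9 ± 4.76 FPKM in RFP-CD160- cells (SD, n = 3 each). Its part in the shared directions was not tested. Nr1d1, a clock repressor, rose by 1.98 ± 0.34 (adjusted p = 0.020), Xdh and Apol9b fell by 0.97 and 0.71 on the log2 scale (adjusted p = 0.0086 and 0.023), and Ifi213 rose by 0.61 (adjusted p = 0.028). The class II genes H2-Aa and H2-Eb1 rose by 1.51 and 1.09 and the class I-like gene H2-T3 by 1.56 (adjusted p = 0.014, 0.030 and 0.041). Leaving out 1 library lost the calls on Ifi213 (knockout replicate 2, adjusted p = 0.053), H2-Eb1 (knockout replicate 1) and H2-T3 (either knockout replicate or littermate replicate 2), and rescaling to equal totals put Apol9b at 0.05. The part of the higher epithelial markers and of the other marker lists in these values was not tested.

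Deleting Tcf7 left the list without a call as well. By limma 0 of 40 tested members passed, 6 had an unadjusted p under 0.05, and edgeR and DESeq2 on the recovered reads each called 0. In this comparison 2.72% of all 15210 tested genes passed, 1.49% higher and 1.23% lower. The median difference over the members was 0.04, against 0.00 over all tested genes. Oasl1 came nearest, with 541 and 477 scaled reads in Tcf7 knockout libraries, against 365 and 360 in littermates (difference 0.49 ± 0.14, adjusted p = 0.10). Oas3 went the other way, with 296 and 281 scaled reads in knockout libraries, against 434 and 348 in littermates (difference -0.43 ± 0.16, adjusted p = 0.27). Both pairs of groups were separate. The remaining 4 with an unadjusted p under 0.05, Zbp1, Gbp4, Parp9 and Xaf1, differed by -0.16, 0.12, 0.14 and -0.20. Mx1 and Mx2, the dynamin-like antiviral GTPases, were analysed in this comparison alone: Mx1 had 84.6 and 65.3 scaled reads in knockout libraries, against 59.0 and 78.4 in littermates, and Mx2 had 57.7 and 90.9, against 48.5 and 65.1. Both overlapped between groups. Paneth cell markers were higher in the knockout libraries, 6 of 6, and summed to 9388 to 10540 scaled reads, against 5448 to 5813 in littermates. Markers of CD4 and CD8αβ T cells, 2 of 5 called higher, summed to 1314 to 1365 scaled reads, against 577 to 777 in littermates, and myeloid markers, 3 of 6 called higher, to 29880.1 to 30341 scaled reads, against 27492 to 27675 in littermates. Epithelial markers, 2 of 18 called higher, summed to 31039 to 31469 scaled reads, against 26945 to 27010.2 in littermates. The part of these lists in the values of the members was not tested. All knockout libraries were higher for 10 of 40 members, against 20.9% of all tested genes, and lower for 5, against 20.7% of all tested genes. In the pathway lists 4 of 140 tested genes rose and 1 fell, 3.57% in all, near the 2.72% of all tested genes that passed, namely Irf8 (0.26), the cytokine signalling inhibitor Cish (0.30), Plac8 (0.59), Slfn5 (0.99) and Ifi208 (-0.58), with adjusted p from 0.00073 to 0.043. Without knockout replicate 1 the calls on Irf8, Cish, Ifi208 and Slfn5 were lost (adjusted p from 0.066 to 0.42), and Irf8 and Slfn5 also lost theirs without knockout replicate 2.

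**Figure D4:**
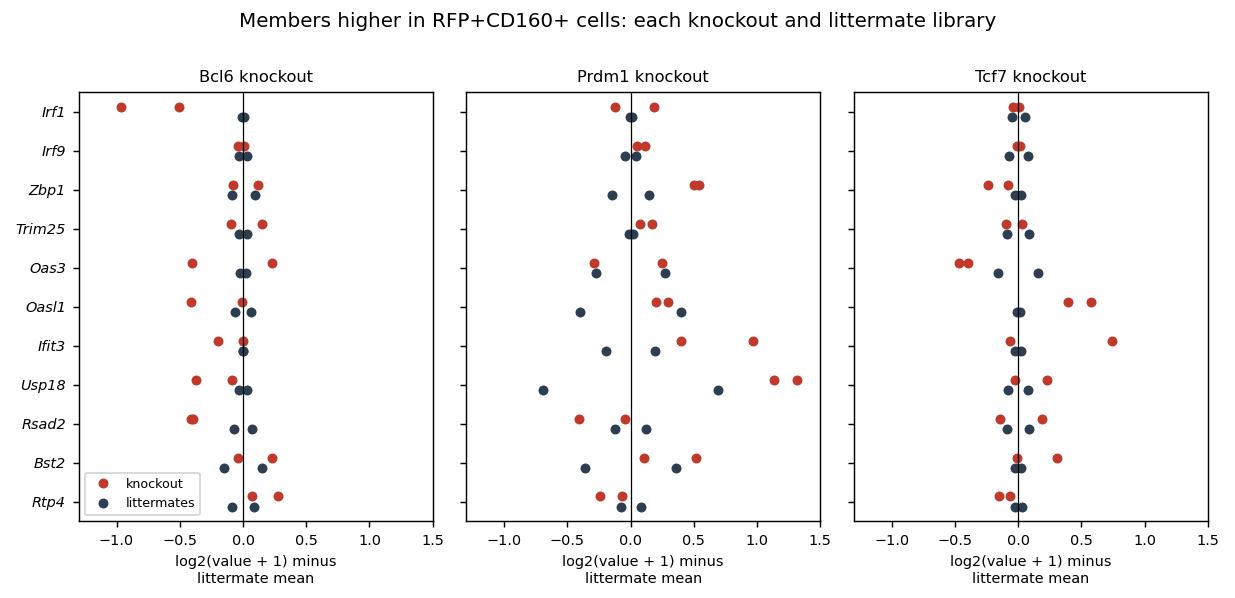
Each library of the 3 knockout experiments for the 11 members higher in RFP+CD160+ cells, as log2(value + 1) minus the littermate mean, with knockout libraries in red and littermates in dark blue (2 libraries each, whose mean is 0 by construction). Oas3 is plotted for the Bcl6 knockout though it was under the filter there. Zbp1 and Usp18 lie to the right of their littermates in the Prdm1 knockout, and Irf1 lies to the left in the Bcl6 knockout.

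Set side by side, the 11 members that rose in RFP+CD160+ cells had a median difference of 0.12 in the Prdm1 knockout. The median was -0.08 over the 24 tested members other than these 11 and Parp14, which fell. Of the 11, 8 were above 0 and 5 had all knockout libraries higher, as had 21.8% of all tested genes. That share is over all genes and not over genes that rose in RFP+CD160+ cells. Of the 9582 genes tested in both comparisons, 2755 were above 0 in both and 4322 below 0 in both. In the Bcl6 knockout the median was -0.06 over the 10 risers that were tested, against 0.12 over 25 further members, again without Parp14. There 4 of the 10 were above 0, and 0 had all knockout libraries higher, against 19.0% of all tested genes. In the Tcf7 knockout the median was 0.00 over 11, against 0.05 over 28, likewise without Parp14. There 6 of the 11 were above 0, and 1 had all knockout libraries higher, against 20.9% of all tested genes. Across genes, the differences in the RFP comparison and in the Prdm1 knockout had a Pearson r of 0.71 and a Spearman rho of 0.58 over 35 members, close to the 0.73 and 0.67 over all 9582 genes tested in both. Genes are not independent replicates, and these values are descriptions. With the Bcl6 knockout the r was -0.45 over 34 members and -0.26 over 9143 genes, and with the Tcf7 knockout it was 0.14 over 35 members and -0.35 over 9605 genes. The comparisons come from separate experiments and units, and no test between them was run.

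**Figure D5:**
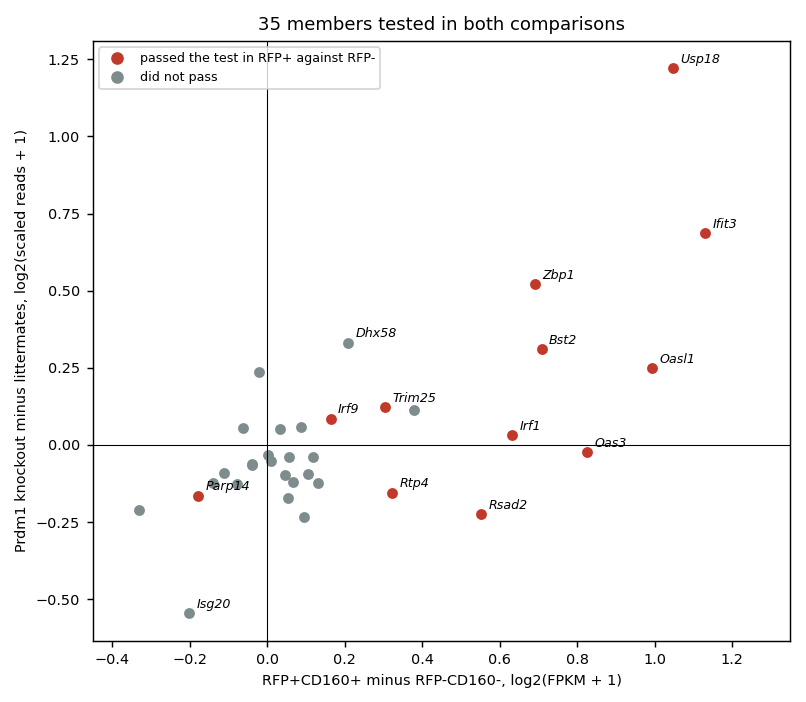
Difference between RFP+CD160+ and RFP-CD160- cells (horizontal axis, log2(FPKM + 1) scale) against the difference between Prdm1 knockout and littermates (vertical axis, log2(scaled reads + 1) scale), 1 point for each of 35 members. Red points passed the test in the RFP comparison. Usp18, Ifit3 and Zbp1 are high on both axes, Irf1 and Oas3 lie near 0 on the vertical axis, and Rsad2 and Rtp4 lie below it.

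Replicates of these genes lay close together in most groups. The median coefficient of variation of the members was 5.37% within the RFP+CD160+ group and 6.89% within the RFP-CD160- group, against 6.56% and 6.86% over all tested genes. In the knockout experiments it was 10.2% in Bcl6 knockout libraries and 8.98% in their littermates, 4.93% and 8.45% for Prdm1, and 3.99% and 3.70% for Tcf7.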

How the data were processed

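Total RNA of sorted cells was extracted with MagZol, and libraries were made by BGI Genomics or Novogene, per the labels' protocols, which do not say which provider made which library. The submitters' processing notes name mm10 as the build and, with no role or order, the programs Bowtie2, Trim Galore 0.4.4, RSEM, featureCounts, Subread and DESeq2.

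The authors deposited FPKM for the reporter, LI and Bcl6 libraries, per the names of the deposited tables. For the Prdm1 and Tcf7 libraries they deposited a signal that came out as whole reads divided by 1 size factor per library, within 0.01 reads for 100% of genes. Values of the FPKM tables gave whole reads for 97.1% to 97.8% of low values, within 0.02 reads, and depth was taken from them. Libraries were grouped by their titles and genotypes.

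Each experiment was fitted alone with limma 3.58.1 (R 4.3.3) on log2(value + 1), with an empirical Bayes trend and Benjamini-Hochberg adjustment over all tested genes at 0.05, two-sided. A gene was tested with at least 1 FPKM, or 50 scaled reads, in at least n libraries, n being the size of the smaller group. Alternatives were other pseudocounts, no filter, other scalings, a replicate block, leaving out each library, and, on recovered reads, edgeR 4.0.16 and DESeq2 1.42.0. The fit was tested on simulated data. Values were given library by library for members called in a comparison and the 3 with the highest mean FPKM, and from each pathway list up to 4 called genes were named by smallest p. Some of these are not reported here. Any member could be named, but library values of further members, such as Isg15 and those of the knockouts, were picked after they were seen. The members, gene lists and markers were chosen with earlier results of these data known, and the 4 immediate-early and heat-shock genes were added last. Gene coordinates came from the GENCODE annotation of GRCm38, and promoters from RefSeq.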

Additional observations from a re-analysis of the deposited data

How the results depend on the processing

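Of the 12 members called between RFP+CD160+ and RFP-CD160- cells, 10 kept their call and direction under all 11 alternatives, the exceptions being Irf9 and Parp14, and no called member changed sign in any comparison. Rescaling to equal totals gave 20 members higher and 0 lower, and centring on well expressed genes gave 11 and 0. Leaving out 1 library gave 10 to 12 members higher, 0 to 1 lower and 2706 to 3402 genes called in all, against 3689 with all libraries. For the Bcl6 knockout the same gave 0 to 3 members higher, 0 to 2 lower and 39 to 1562 genes. For the Prdm1 knockout it gave 0 to 2 higher, 0 lower and 569 to 1255 genes, and centring, edgeR and DESeq2 each called 1 member higher, with 1184 genes called by DESeq2 in all, against 750 by limma. For the Tcf7 knockout it gave 0 members and 243 to 738 genes, against 413. A lone remaining library was assumed to vary like the other group. Labels share replicate numbers but nothing says that a number pairs libraries. The correlation of same-numbered deviations was -0.231, 0 and -0.331 for the reporter libraries, -0.459 for Bcl6, 0.528 for Prdm1 and 0.064 for Tcf7, and 2 pairs cannot decide, so no pairing was taken as given in any experiment. With the replicate block, 11 members were higher and 0 lower between RFP+CD160+ and RFP-CD160- cells, 78 genes were called for Bcl6, 2 members higher, 1 lower and 2386 genes for Prdm1 (Zbp1, Usp18 and Isg20, adjusted p = 0.00088, 0.020 and 0.0099), and 2 members higher and 977 genes for Tcf7 (Oasl1 and Gbp4, 0.036 and 0.024). None of the 3 RFP+CD160+ libraries correlated best with the RFP-CD160- library of its own number. Ifi44, Oas2, Oasl2 and Iigp1 rest on few reads.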
